A study of Mus musculus with 19 samples.

Results

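Box H/ACA small nucleolar RNAs were followed as fragments in the small RNA of mouse sperm. Members were the annotated mouse snoRNA genes (GENCODE release M21, genome build GRCm38) whose symbol begins with Snora. They comprised 42 gene records at 40 loci, of 1505 snoRNA loci in the annotation, because Snora43 and Snora16a each had a pair of records at one place. Only sense reads were counted, 1 mismatch was allowed, reads that matched several genes were divided equally among them, and reads that also matched a miRNA, rRNA or tRNA were left out.

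Box H/ACA snoRNAs guide the conversion of uridine to pseudouridine, chiefly in ribosomal RNA. Each folds into a pair of hairpins joined by a hinge that carries box H and followed by an ACA triplet near the 3′ end, and each is bound by the pseudouridine synthase dyskerin with NOP10, NHP2 and GAR1. Most are cut from introns of host genes that are often needed for ribosome assembly or translation. Mature H/ACA snoRNAs are longer than the inserts sequenced here, so every read on them is a fragment.

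The study asked whether phthalate exposure of fathers alters sperm small RNAs. Wild-type male mice of the C57BL/6J strain, 8 weeks old at the start, received DCHP (dicyclohexyl phthalate) or corn oil vehicle by oral gavage for 4 weeks. Cauda epididymal sperm was washed through a step that lyses somatic cells, and RNA of 15–50 nt was cut from a gel. Traditional RNA-seq was made for 5 control and 5 DCHP libraries. PANDORA-seq was made for 4 control and 5 DCHP libraries. PANDORA-seq treats the RNA with AlkB, which removes methyl groups that block reverse transcription, and with T4PNK, which repairs fragment ends so that they can be ligated. The labels give DCHP gavage as the treatment of every library, so the titles of the libraries decided which were control and which DCHP. The labels do not say that replicates came from separate animals, although the study describes the PANDORA-seq replicates as biological replicates of mice. Where libraries share animals or RNA, p-values measure only the spread between these libraries, which may be technical.

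Libraries held 21588335 to 56506344 reads. The sperm miRNA Mir34c was detected in every library, at 0.511–5.53 reads per 1000000 deposited reads (RPM) by PANDORA-seq against 75.6–407 RPM by traditional RNA-seq. Of the same marker list, Mir34b was also detected in every library. Mir449a was at 0 in PANDORA-seq control replicates 1, 2 and 3 and in PANDORA-seq DCHP replicate 2. Markers of other cells were present too, given here for PANDORA-seq and then traditional RNA-seq. Mir122, the main liver miRNA, stood at 3.74–129 RPM and 783–70134 RPM. Mir143 of smooth muscle stood at 2.48–111 RPM and 1353–6882 RPM, and Mir200b of epithelium at 1.34–20.1 RPM and 297–2264 RPM. Mir122, Mir143, Mir200b and also Mir200c each lay above Mir34c in every library, while other markers of the same cells did not. Mir145a of smooth muscle stood at 0.0599–0.870 RPM and 12.8–84.4 RPM. Of the epithelial list, Mir200a stood at 0.197–13.8 RPM and 109–975 RPM, and Mir141 at 0–0.249 RPM and 1.91–18.2 RPM. Mir141 lay below Mir34c in every library, Mir145a in nearly every library and Mir200a in some. Over the whole blood list, Mir451a, Mir144 and Mir142 were each at 0 in at least 1 library of both PANDORA-seq groups and lay between 0.372 and 73.5 RPM in traditional RNA-seq. The part of other cells in the Snora levels was not tested, and in bulk samples more RNA per cell and more cells of a type cannot be told apart. Reads on miRNA hairpins took 1.06–1.40% of a PANDORA-seq library and 4.55–16.9% of a traditional library, while the rRNA sequences used here, which hold nuclear rRNA only in part, took 26.04–36.7% and 5.37–7.11%. Reads of mature miRNA numbered 4305–36007 per PANDORA-seq library, beside 283683–758477 reads on hairpins. In traditional libraries they numbered 628620–3698531, beside 1119719–8830574. Hairpin reads of PANDORA-seq are thus no measure of its mature miRNA.

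The genes were 121–205 nt long with a median of 132.5 nt. The annotation placed 37 of the 40 within a host gene and 3 (Snora17, Snora43 and Snora57) between genes. Ribosomal protein genes hosted 11 and Snhg genes, noncoding RNAs named for their snoRNA cargo, hosted 6. The family signature was present in the reference sequences, with the ACA triplet exactly 3 bases before the annotated end in 34 of 40 Snora genes (85%) and in 0 of 98 box C/D genes named Snord. ACA lay within the last 8 bases in 38 of 40 Snora genes (95%) against 7 of 98 Snord genes (7.14%).

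Snora24, Snora57 and Snora44, which are among the 4 genes with the highest level per length, were chosen to show where the fragments lie. Each is printed 5′ to 3′ as transcribed, from the GENCODE transcripts on GRCm38. Capitals mark the leading fragment, which is the most abundant exact start and end. Snora24 lies at chr3:123507937-123508066 on the minus strand within Snhg8, where it overlaps an exon of an annotated transcript. Snora57 lies at chr19:8888538-8888685 on the minus strand, and Snora44 at chr4:132309941-132310069 on the plus strand within Snhg12. The leading fragment is that of PANDORA-seq for Snora24 and Snora57 and that of traditional RNA-seq for Snora44.
Snora24: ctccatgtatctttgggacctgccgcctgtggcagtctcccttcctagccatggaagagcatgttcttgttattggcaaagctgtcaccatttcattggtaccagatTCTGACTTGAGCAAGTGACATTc
Snora57: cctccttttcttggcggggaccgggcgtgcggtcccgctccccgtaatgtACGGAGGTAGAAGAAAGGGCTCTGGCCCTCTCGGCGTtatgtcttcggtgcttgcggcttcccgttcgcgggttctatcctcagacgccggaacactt
Snora44: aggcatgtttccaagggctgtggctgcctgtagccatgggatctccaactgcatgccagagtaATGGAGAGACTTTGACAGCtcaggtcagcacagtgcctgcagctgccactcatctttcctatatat
The fragment of Snora24 is a 3′ fragment that ends 1 base before the annotated end and holds the ACA triplet. Those of Snora57 and Snora44 are internal.

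Sense reads on the 40 genes numbered 1991 to 5715 per library. Of the 40 loci, 31 had a read in all 19 libraries. The summed level was 103 ± 15.2 RPM (SD, n = 4) in PANDORA-seq control and 86.0 ± 19.6 RPM (n = 5) in PANDORA-seq DCHP. It was 77.5 ± 18.1 RPM (n = 5) in traditional control and 90.2 ± 32.6 RPM (n = 5) in traditional DCHP. The libraries of both methods overlapped, with 66.0–122 RPM by PANDORA-seq against 60.2–146 RPM by traditional RNA-seq. Expressed per 1000000 miRNA hairpin reads, the same libraries did not overlap between methods (5399–9952 against 448–2809). Antisense reads were few, at 0.237–0.597 RPM by PANDORA-seq against 1.57–3.002 RPM by traditional RNA-seq. Snord genes summed to 1041–2418 RPM and 678–4295 RPM by the same counting.

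Reads were spread unevenly over the genes, and which genes led differed by method. The 5 genes with the highest mean level held 44.0–53.1% of Snora reads by PANDORA-seq against 38.9–56.7% by traditional RNA-seq. The 20 genes with the highest mean level held 91.4–94.5% of Snora reads by PANDORA-seq against 81.6–90.1% by traditional RNA-seq. Snora24 alone took 15.4–38.3% by PANDORA-seq against 3.49–14.4% by traditional RNA-seq, ranges that did not overlap. Snora62 took 2.81–8.33% and 10.2–32.9%, also without overlap but in the opposite order. Averaged over 19 libraries and divided by gene length, Snora24 stood at 10.9 RPM per 100 nt, Snora62 at 8.02, Snora57 at 4.63, Snora44 at 4.04 and Snora81 at 3.03. The order differed by method. Per length, Snora24 was above Snora62 in 9 of 9 PANDORA-seq libraries and below it in 9 of 10 traditional libraries, the exception being DCHP replicate 2. Snora57 was above Snora44 in 9 of 9 PANDORA-seq libraries and below it in 10 of 10 traditional libraries.

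**Figure D1:**
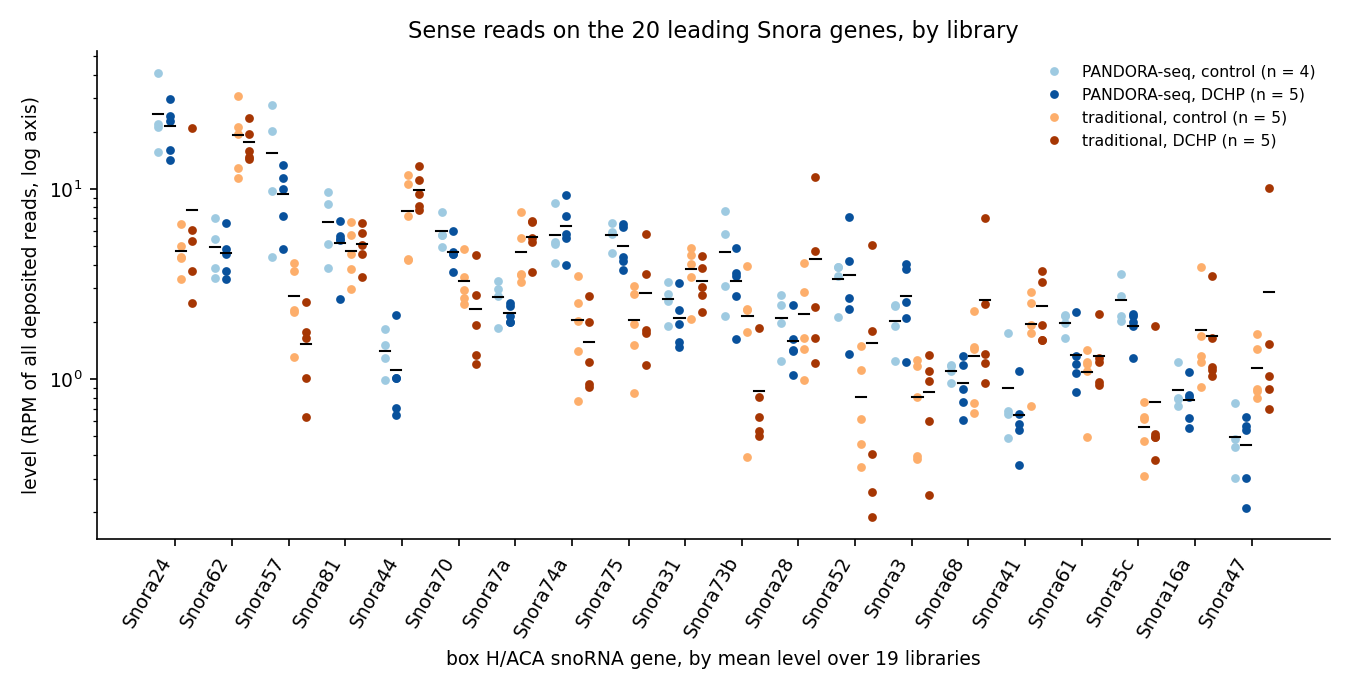
Level of the 20 leading Snora genes in each of 19 libraries, in RPM of all deposited reads on a log axis. Points are libraries coloured by method and exposure, and black bars are group means. Snora24 and Snora57 sit higher in PANDORA-seq and Snora62 and Snora44 higher in traditional RNA-seq, while control and DCHP points of one method overlap for each gene shown.

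The first comparison asked how Snora fragments differ between PANDORA-seq and traditional libraries. The chemistry cannot be told apart here from anything else that differed between the preparations. With all deposited reads as library size, 15 of the 29 members tested differed between methods in control sperm, 8 higher and 7 lower in PANDORA-seq. Over all 1283 small RNA genes tested, 71.9% were called, 16.8% higher and 55.1% lower. In DCHP sperm 20 of 30 members were called, 8 higher and 12 lower, against 75.4% of 1300 genes, 15.2% higher and 60.2% lower. A call needed a Benjamini-Hochberg adjusted p below 0.1 in edgeR's quasi-likelihood test and a fold above 2. The median log2 fold change of members was 0.32 in control and −0.75 in DCHP, beside −1.48 and −1.85 over all genes. The split of calls depended on the scale. With miRNA hairpin reads as library size 26 members were called higher and 0 lower in control, beside 48.6% and 29.7% of all genes. In DCHP 21 were higher and 0 lower, beside 46.7% and 37.2%. With mature miRNA reads 29 were higher and 0 lower in control, beside 83.2% and 1.4% of all genes, and 30 and 0 in DCHP, beside 83.2% and 0.308%. With TMM factors 15 were higher and 1 lower in control, beside 30.6% and 44.7%, and 14 and 2 in DCHP, beside 31.2% and 44.7%. With DESeq2 size factors 15 were higher and 3 lower in control, beside 28.8% and 45.8%, and 14 and 2 in DCHP, beside 30.5% and 45.5%. The median over all genes moved with the scale, in control to 0.91, 5.68, −0.50 and −0.58 with hairpin reads, mature miRNA reads, TMM factors and DESeq2 size factors, and in DCHP to 0.70, 5.27, −0.40 and −0.45.

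Calls of higher level held on every scale for 8 members in each exposure group, and 6 of these were shared (Snora24, Snora3, Snora57, Snora5c, Snora73b and Snora74a). They are the members called higher on total reads, the scale with the lowest median over all genes, so the other scales add little. No member was called lower on all 5 scales. With mature miRNA reads few genes of any kind were called lower, 1.4% in control and 0.308% in DCHP. Lower calls on total reads, TMM factors and DESeq2 size factors together were made for Snora44 in control and for Snora44 and Snora20 in DCHP. A fit needed a mean of at least 10 reads, which Snora20 in DCHP reached only through the traditional libraries, where it is high.

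Snora24 had the highest mean level in PANDORA-seq (22.9 RPM over 9 libraries), although Snora57 was above it in control replicates 1 and 4. Its levels in PANDORA-seq control were 21.9, 21.2, 40.8 and 15.6 RPM, and in traditional control 6.55, 3.38, 5.04, 4.41 and 4.34 RPM. Every PANDORA-seq control library lay above every traditional one. The fold was 5.24 (log2 2.39 ± 0.34 SE, edgeR adjusted p = 5.30e-05). In DCHP sperm the levels were 24.2, 15.9, 22.7, 14.3 and 29.8 RPM in PANDORA-seq and 2.51, 21.1, 5.35, 3.71 and 6.09 RPM in traditional RNA-seq. Here the groups overlapped through a single traditional library, DCHP replicate 2. The log2 fold change was 1.47 ± 0.52 (edgeR adjusted p = 0.0210), and 2.28 without that library.

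Snora57 behaved alike in both exposure groups. PANDORA-seq gave 27.6, 9.75, 4.39 and 20.2 RPM in control and 7.19, 9.97, 4.85, 11.5 and 13.4 RPM in DCHP. Traditional RNA-seq gave 3.70, 1.31, 2.31, 2.26 and 4.07 RPM in control and 1.01, 2.55, 0.634, 1.65 and 1.78 RPM in DCHP. The methods did not overlap in either exposure group, although PANDORA-seq control spread widely. The log2 fold change was 2.51 ± 0.52 in control and 2.63 ± 0.41 in DCHP (edgeR adjusted p = 0.000883 and 6.32e-05). Of the reads on Snora57, 95.2% also matched the predicted snoRNA Gm26132 and were divided with it, so the split between these copies is uncertain.

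Snora5c, hosted by Tbrg4, was higher in PANDORA-seq by 2.22 ± 0.35 on the log2 scale in control and by 1.37 ± 0.43 in DCHP. Its PANDORA-seq levels were 3.56, 2.16, 2.01 and 2.73 RPM in control, and its traditional levels 0.308, 0.470, 0.759, 0.632 and 0.620 RPM. No control library of one method reached those of the other. In DCHP one traditional library, replicate 2, reached 1.90 RPM while the others stayed between 0.376 and 0.517 RPM, and without it the log2 fold change was 1.997. Gm23346 shared 87.8% of the reads of this gene, which leaves its level uncertain.

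Snora73b and Snora73a lie in Rcc1 and belong to the U17 family, known for a part in rRNA processing rather than in guiding modification. Snora73b stood at 7.70, 3.08, 2.15 and 5.80 RPM in PANDORA-seq control and at 2.30, 0.390, 2.35, 1.78 and 3.93 RPM in traditional control. These groups overlapped, with a log2 fold change of 1.13 ± 0.55 (edgeR adjusted p = 0.0826). This call was lost without PANDORA-seq control replicate 1 (0.79) or 4 (1.01), or traditional control replicate 1 (1.16), 2 (0.86), 3 (1.17) or 4 (1.08). In DCHP the log2 fold change of Snora73b was 1.95 ± 0.42 (edgeR adjusted p = 0.000883), and no single library ended that call. Snora73a, which shared 24.5% of the reads of Snora73b, was not called in either group (0.32 ± 0.33 in control and 0.33 ± 0.26 in DCHP).

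Snora74a, also known as U19, and Snora3, hosted by the ribosomal protein gene Rpl27a, were called higher in PANDORA-seq with reads on miRNA hairpins left out. Snora74a had log2 fold changes of 1.48 ± 0.41 in control and 2.04 ± 0.36 in DCHP, and Snora3 1.30 ± 0.42 and 1.67 ± 0.44. Counting hairpin reads for the snoRNA kept the direction and lost the calls, with 0.58 and 0.40 for Snora74a and 0.89 and 0.77 for Snora3. For Snora74a the reads set aside were on Gm49347, an annotated hairpin inside the gene, at 0.964–3.29 RPM by PANDORA-seq against 2.05–5.30 RPM by traditional RNA-seq.

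Snora52, hosted by the ribosomal protein gene Rplp2, and Snora75, hosted by the nucleolin gene Ncl, were called in control sperm. Their log2 fold changes were 2.04 ± 0.44 and 1.496 ± 0.36 (edgeR adjusted p = 0.00117 and 0.00271). In DCHP sperm they were 1.23 ± 0.81 and 0.85 ± 0.41 and were not called. Traditional DCHP replicate 2 held 5.10 RPM of Snora52 and 5.79 RPM of Snora75, the highest of its group for each, and without it both were called (2.42 and 1.28). Snora75 divided 50.4% of its reads with Gm22338. Snora70, hosted by Rpl10, was called in DCHP (1.01 ± 0.35) and not in control (0.87 ± 0.29, called at 1.05 with the replicate block and at 1.06 without traditional replicate 5), and its DCHP call was lost without PANDORA-seq replicate 5 (0.91) or traditional replicate 1 (0.95), 3 (0.86) or 4 (0.84). Whether these effects differ between exposure groups is the test of the interaction given further on.

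Snora62 had the highest mean level in traditional RNA-seq (18.4 RPM over 10 libraries), although Snora24 was above it in DCHP replicate 2. Traditional libraries held 11.5, 19.4, 30.99, 12.9 and 21.3 RPM in control and 23.7, 14.8, 19.5, 15.9 and 14.3 RPM in DCHP. PANDORA-seq libraries held 3.42, 7.07, 5.48 and 3.84 RPM in control and 6.61, 4.56, 3.70, 3.35 and 4.85 RPM in DCHP. The lowest traditional library exceeded the highest PANDORA-seq library. With all reads as library size the log2 fold change was −1.96 ± 0.38 in control and −1.93 ± 0.27 in DCHP (edgeR adjusted p = 0.000576 and 2.56e-05), while with hairpin reads as library size it turned to 0.51 and 0.53. Snora62 shared no appreciable part of its reads with another gene.

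Snora44, 1 of the 3 members in Snhg12 with Snora16a and Snora61, had the lowest ratio of PANDORA-seq to traditional reads among the members that entered both method fits (423 to 3252 reads). It stood at 1.504, 1.83, 1.30 and 0.985 RPM in PANDORA-seq control and 1.01, 1.02, 0.709, 0.646 and 2.17 RPM in PANDORA-seq DCHP. Traditional RNA-seq gave 4.27, 11.9, 10.6, 4.25 and 7.19 RPM in control and 7.74, 13.2, 9.36, 8.12 and 11.1 RPM in DCHP. No library of one method reached the other in either exposure group. The log2 fold change was −2.46 ± 0.41 in control and −3.15 ± 0.37 in DCHP (edgeR adjusted p = 0.000175 and 4.70e-06), and with hairpin reads as library size it was 0.11 in control. Its neighbours went separate ways: Snora16a was called lower in both groups (−1.04 ± 0.45 and −1.09 ± 0.37) and Snora61 in neither (0.87 ± 0.33 and 0.02 ± 0.33).

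Snora20, hosted by the chaperonin gene Tcp1, held 0.275, 0.529, 0.694 and 0.248 RPM in PANDORA-seq control and 0.317, 0.150, 0.201, 0.0698 and 0.249 RPM in PANDORA-seq DCHP. In traditional RNA-seq it held 0.646, 1.48, 1.13, 0.676 and 1.28 RPM in control and 0.976, 3.24, 1.67, 1.16 and 1.92 RPM in DCHP. The groups overlapped in control and not in DCHP. These levels rest on 2–30 reads per PANDORA-seq library and 22–77 per traditional library. The log2 fold change was −1.25 ± 0.43 in control and −3.10 ± 0.43 in DCHP (edgeR adjusted p = 0.0196 and 2.32e-05), and with mature miRNA reads as library size 5.92 and 3.91.

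The other members called lower in PANDORA-seq on total reads were Snora69, Snora47 and Snora41 in control (−1.97, −1.20 and −1.11). Snora69 held 10, 7, 7 and 6 reads in PANDORA-seq control and 14, 83, 61, 17 and 14 in traditional control. It therefore met the minimum mean of 10 reads only through the group where it is high, and its call carries no weight as a test. With the replicate number as a block, Snora17 was also called lower in control (−1.02). In DCHP they were Snora7a, Snora41, Snora17, Snora47, Snora65, Snora68, Snora28 and Snora64, between −1.11 and −2.64. With mature miRNA reads as library size each of these values, and those of Snora16a, were positive. In DCHP, TMM factors also turned Snora7a, Snora16a and Snora64 to positive values, and DESeq2 size factors Snora28, Snora68, Snora16a and Snora64. With reads under 18 nt left out the DCHP value of Snora64, whose traditional reads had a median length of 15 nt, turned from −1.11 to 0.40. The DCHP value of Snora47 was −1.15 without traditional replicate 5, which held 10.2 RPM of it. Snora65, Snora64 and Snora30 were named after their values were seen. Without traditional DCHP replicate 2 the DCHP calls of Snora28 (−0.64), Snora68 (−0.64), Snora65 (−1.30), Snora64 (−0.72) and Snora16a (−0.66) were lost, and 17 members were called in place of 20, 10 higher and 7 lower. The fit with all libraries called 75.4% of all genes, and the share without this library is not given here. In control, Snora16a lost its call without PANDORA-seq replicate 1 (−0.99), 2 (−0.96) or 4 (−0.99) or traditional replicate 2 (−0.55), and Snora41 without PANDORA-seq replicate 1 (−1.003), 2 (−0.92) or 4 (−0.99) or traditional replicate 2 (−0.93) or 3 (−1.01). Snora64 also lost its DCHP call without PANDORA-seq replicate 1 (−0.97), 3 (−0.9998) or 4 (−0.94), and Snora16a without PANDORA-seq replicate 3 (−0.99). Snora30 was higher in DCHP (1.17 ± 0.44) and was not called without PANDORA-seq replicate 5 (0.90) or traditional replicate 5 (0.97).

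**Figure D2:**
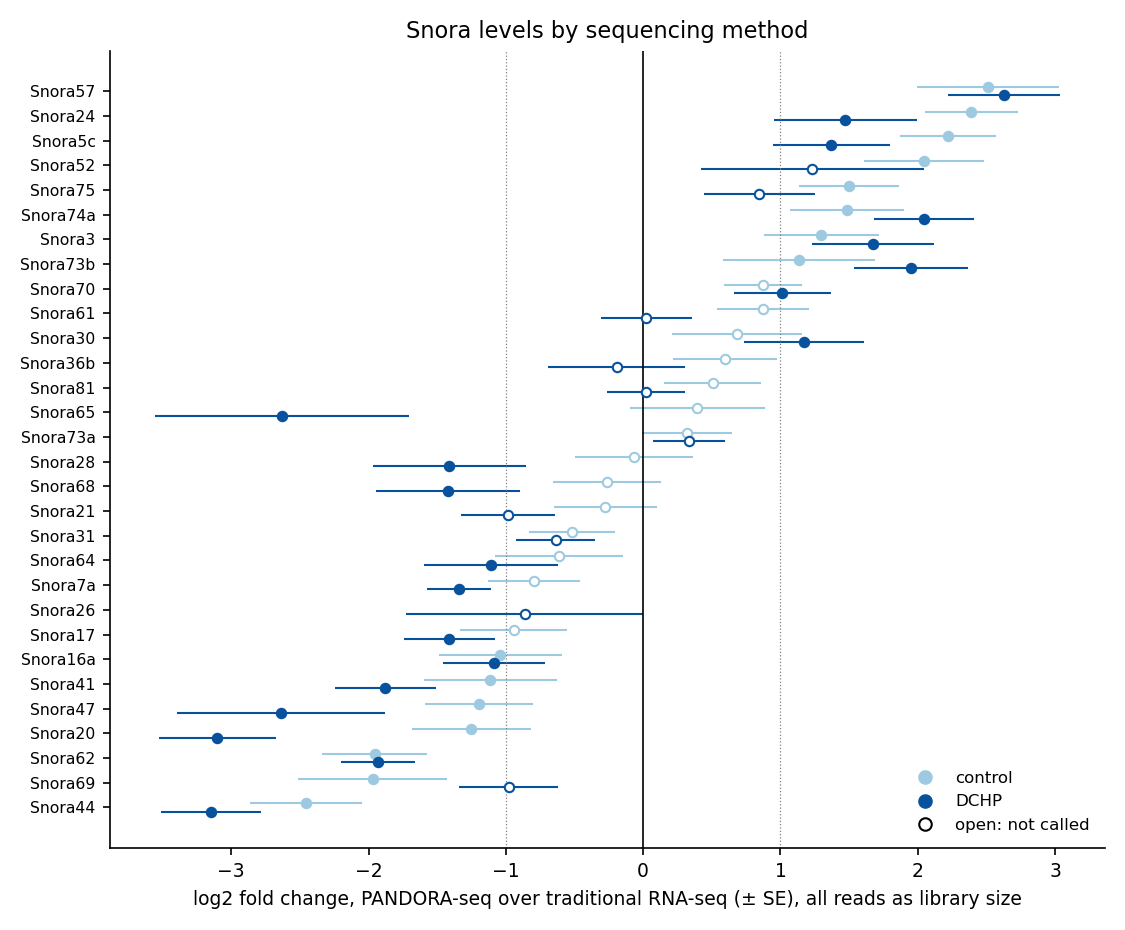
Log2 fold change of PANDORA-seq over traditional RNA-seq for each Snora gene tested, with all deposited reads as library size. Points are edgeR estimates in control and DCHP sperm with bars of 1 SE, filled points were called, and dotted lines mark a fold of 2. Snora57 and Snora24 lie near the top and Snora44 at the bottom in both exposure groups.

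The related RNAs and proteins were counted in the same fit, with all reads as library size. Box C/D Snord genes, which guide ribose methylation, were called higher in 22 and lower in 14 of 78 in control, and in 23 and 26 of 80 in DCHP. Scarna genes, small RNAs of Cajal bodies, were called higher in 2 and lower in 2 of 6 in control, and in 1 and 3 of 6 in DCHP. Terc, the telomerase RNA, which carries an H/ACA domain, was lower in both (−1.93 and −2.38), and turned to 0.25 and 0.13 with hairpin reads as library size. Among 6 mRNAs of the H/ACA ribonucleoprotein and its assembly (Dkc1, Gar1, Nhp2, Nop10, Naf1 and Shq1), 0 were higher and 2 lower in control, and 0 and 4 in DCHP. Over all genes on this scale 16.8% were higher and 55.1% lower in control, and 15.2% and 60.2% in DCHP. With hairpin reads as library size the calls of the mRNAs were 5 higher and 0 lower of 6 in both groups, and those of Snord genes 68 higher and 2 lower in control and 61 and 4 in DCHP, on the scale where 48.6% of all genes were higher and 29.7% lower in control, and 46.7% and 37.2% in DCHP.

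The second comparison asked whether DCHP exposure changed Snora fragments. None of the 28 members tested by PANDORA-seq was called, nor was any of the 831 genes tested (0%). At an unadjusted p below 0.05 stood 33 genes and 1 member. None of the 30 members tested by traditional RNA-seq was called, nor any of 1515 genes (0%), with 133 genes and 2 members at an unadjusted p below 0.05. DESeq2's Wald test called 0 members in both methods. The median log2 fold change of members was −0.27 in PANDORA-seq, beside −0.05 over all genes, and 0.31 in traditional RNA-seq, beside 0.31.

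The leading members show the size of the spread. Snora24 had a log2 fold change of −0.22 ± 0.34 by PANDORA-seq against 0.70 ± 0.51 by traditional RNA-seq, where replicate 2 of the DCHP group stood apart at 21.1 RPM. Without that library the traditional value turned to −0.10, and without PANDORA-seq control replicate 3 that of PANDORA-seq turned to 0.13. Snora62 had −0.10 ± 0.30 and −0.12 ± 0.30, and leaving out 1 library gave −0.27 to 0.12 and −0.26 to 0.12. Snora57 had −0.72 ± 0.46 and −0.84 ± 0.42, the same sign in both methods and within the spread of the libraries listed above (edgeR adjusted p = 0.994 and 0.388). Snora44 had −0.32 ± 0.37 and 0.37 ± 0.33.

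The 3 members at an unadjusted p below 0.05 all failed adjustment. Snora20 in PANDORA-seq had a log2 fold change of −1.09 ± 0.44 (edgeR adjusted p = 0.992). Snora73b in traditional RNA-seq had −1.33 ± 0.55 (edgeR adjusted p = 0.388), with DCHP levels of 0.635, 1.85, 0.806, 0.535 and 0.502 RPM. Apart from replicate 2, each of them lay below 4 of the 5 control libraries. Snora65 in traditional RNA-seq had 2.67 ± 0.998 (edgeR adjusted p = 0.388). Its DCHP libraries held 0.279, 9.62, 3.24, 0.197 and 0.678 RPM and its control libraries 0.235, 0.485, 0.969, 0.184 and 0.258 RPM. The difference rests on 2 libraries (1.33 without replicate 2), and the other DCHP libraries lay within the control range. Gm24613 shared 73.4% of the reads of Snora65.

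Whether the effect of DCHP differed between the methods was tested as an interaction, and 0 of 30 members and 0 of 1321 genes (0%) were called by edgeR, with 55 genes and 2 members at an unadjusted p below 0.05. DESeq2's Wald test also called 0 members, and its share over all genes is not given here. The interaction was fitted with libraries as unpaired and was not run with the replicate number as a block. Those 2 members were Snora20 (−1.86 ± 0.60, edgeR adjusted p = 0.951) and Snora65 (−3.02 ± 1.14, edgeR adjusted p = 0.951), the latter at −1.69 without traditional DCHP replicate 2. For Snora52, Snora75 and Snora70, called in one exposure group only, no interaction was called in this unpaired fit. The related lists had no call in any comparison of exposure.

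**Figure D3:**
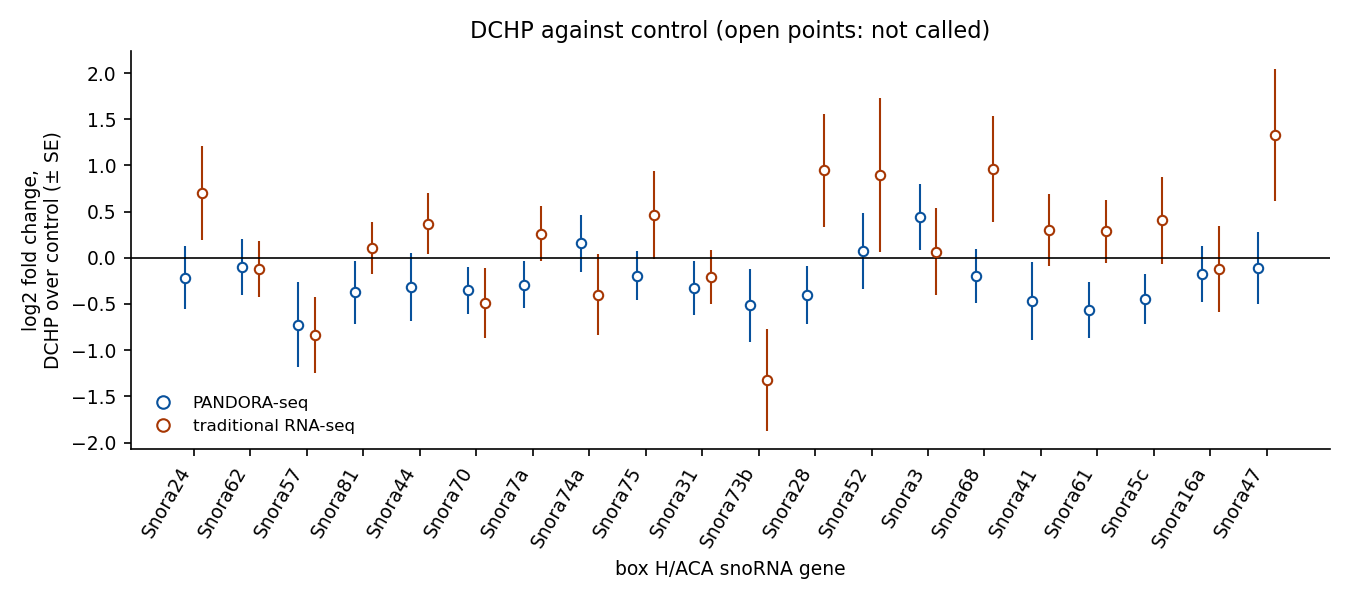
Log2 fold change of DCHP over control for the 20 leading Snora genes in PANDORA-seq and traditional RNA-seq. Points are edgeR estimates, bars are 1 SE, and open points were not called. All points are open; Snora73b in traditional RNA-seq lies lowest at −1.33 and Snora47 in traditional RNA-seq highest at 1.33, which turned to −0.14 without DCHP replicate 5.

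Fragments were then sorted by where they lie in the gene. A 5′ fragment began within 5 bases of the annotated start, a 3′ fragment finished within 5 bases of the annotated end, and the others were internal. No read spanned a whole gene. PANDORA-seq libraries held 8.98–15.6% 5′ fragments and traditional libraries 27.7–44.9%, with no overlap between methods. The 3′ share was 32.8–57.7% by PANDORA-seq against 23.3–41.3% by traditional RNA-seq, and the internal share 26.7–58.2% and 29.0–37.2%, both with overlap. A pair of genes weighs on these shares: Snora24, mostly 3′ fragments, and Snora62, nearly all 5′ fragments. Without both, the 5′ share was 5.66–13.2% and 13.2–31.8%, and the 3′ share 20.6–40.5% and 25.3–40.1%, so that the 5′ ranges overlapped slightly and the medians of the 3′ share changed order (26.8% by PANDORA-seq against 33.9% by traditional RNA-seq). With each of the 20 leading genes weighted equally, the median 3′ share over genes was 4.27–17.7% by PANDORA-seq against 17.2–45.6% by traditional RNA-seq, the opposite order with slight overlap. The median 5′ share so weighted was 0–2.11% and 0–9.73%, with overlap.

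By exposure the 5′ and 3′ shares lay close together. The 5′ share averaged 12.2 ± 3.59% in control and 13.1 ± 1.86% in DCHP by PANDORA-seq, and 38.1 ± 4.94% and 38.5 ± 6.48% by traditional RNA-seq (SD). The 3′ share averaged 41.7 ± 11.8% and 41.2 ± 8.66%, and 28.4 ± 4.36% and 30.3 ± 6.43%. In each method these differences between exposure groups were smaller than the SD of either group. The internal share averaged 46.1 ± 15.04% and 45.7 ± 7.57% by PANDORA-seq. By traditional RNA-seq it averaged 33.5 ± 3.31% in control and 31.2 ± 0.699% in DCHP, a difference larger than the SD of the DCHP group and smaller than that of control, and the libraries overlapped (29.0–37.2% and 30.5–32.2%).

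The fragment type that held more than 50% of a gene's reads was compared among the 4 groups, with the reads of each group summed. It was the same in all 4 groups for 14 of the 20 leading genes. Snora62, Snora7a and Snora47 gave mostly 5′ fragments. Snora24, Snora70, Snora52, Snora41, Snora61 and Snora5c gave mostly 3′ fragments, and Snora57, Snora81, Snora74a, Snora73b and Snora3 mostly internal ones. Between methods the type, or the lack of one, was the same for 15 genes in control and for 17 in DCHP. The genes that differed were Snora68 and Snora16a in both exposure groups, Snora75, Snora31 and Snora28 in control, and Snora44 in DCHP. For Snora28 the internal share was 91.5–100% by PANDORA-seq against 16.7–80.8% by traditional RNA-seq, without overlap, and its summed traditional reads were mostly 3′ in control (66.01%) and mostly internal in DCHP (65.2%). Snora62 had 91.1–97.3% 5′ fragments by PANDORA-seq against 95–100% by traditional RNA-seq, and Snora24 had 79.7–96.3% and 55.7–93.3% 3′ fragments.

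**Figure D4:**
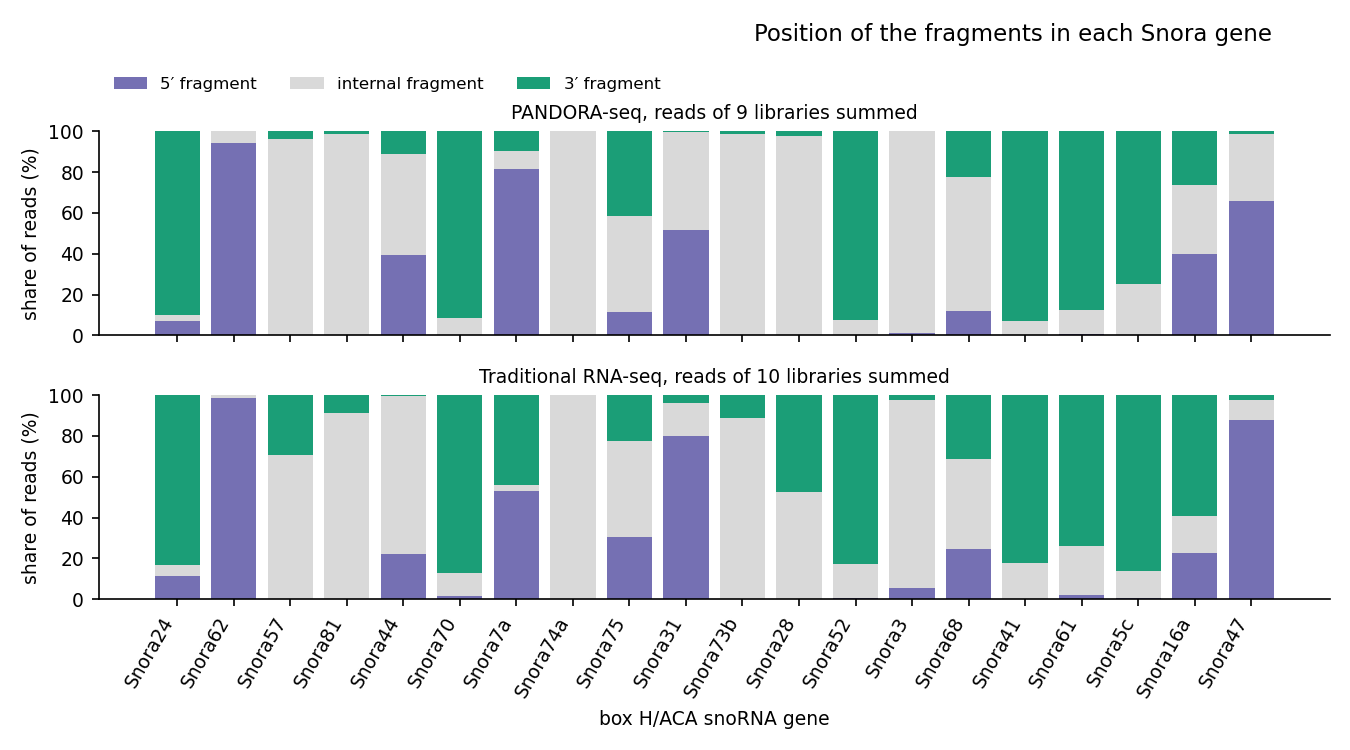
Share of 5′, internal and 3′ fragments among the reads of each of the 20 leading Snora genes, with the reads of 9 PANDORA-seq libraries (top) and of 10 traditional libraries (bottom) summed. Bars run from 0 to 100%. Most genes keep their colour between the panels, while Snora44, Snora7a, Snora28 and Snora16a show a visible shift.

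Ends were sharply placed. Of 3′ fragments, 83.0% by PANDORA-seq against 65.7% by traditional RNA-seq ended exactly 1 base before the annotated end. That place keeps the ACA triplet of the 34 genes, of 40, that have it exactly 3 bases before the end. Without Snora24, which gave 53.8% and 19.001% of the 3′ fragments, the values were 69.05% and 59.7%, and the libraries overlapped (64.4–75.7% and 53.2–68.9%). Of 5′ fragments, 50.9% and 35.7% began at base 1 and 42.1% and 60.2% at base 2. Snora62, whose fragments began mostly at base 2, gave 37.8% and 59.4% of them. Without it 79.8% and 83.9% began at base 1 and 10.2% and 9.11% at base 2, with overlap between the libraries of both methods.

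Fragments were longer in PANDORA-seq. The median length per library was 27–34 nt in PANDORA-seq (median 33 nt) and 22–29 nt in traditional RNA-seq (median 24 nt). The ranges touched only through PANDORA-seq DCHP replicate 3 (27 nt) and traditional DCHP replicate 2 (29 nt). Reads of 32–45 nt made up 37.3–66.5% of Snora reads by PANDORA-seq against 14.6–35.8% by traditional RNA-seq, without overlap. All deposited reads showed the same order with a smaller gap, 32–35 nt against 29–30 nt, and Snord reads had medians of 32–38 nt and 29–32 nt. By exposure the mean of library medians was 32.5 ± 1.91 nt in control and 32 ± 2.92 nt in DCHP by PANDORA-seq, and 23.8 ± 1.095 nt and 24.2 ± 2.77 nt by traditional RNA-seq.

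Single genes gave much of the reads at some lengths. In PANDORA-seq Snora24 gave 84.2% of reads at 22 nt and 67.4% at 35 nt, and Snora57 gave 82.9% at 37 nt. In traditional RNA-seq Snora44 gave 62.6% at 19 nt, Snora62 gave 64.3% at 25 nt and Snora7a gave 30.5% at 15 nt. Within genes, 15 of the 20 had a longer median in PANDORA-seq, 4 (Snora24, Snora70, Snora31 and Snora52) the same median and 1 (Snora68) a shorter one. For 6 genes, Snora62, Snora57, Snora44, Snora7a, Snora74a and Snora61, the library medians of both methods did not overlap. The medians of all deposited reads did not overlap either (32–35 nt against 29–30 nt). The share of genes without overlap over all small RNA genes was not computed, so these genes cannot be called particular. Snora62 had a median of 30 nt in each PANDORA-seq library and of 24–25 nt in the traditional libraries.

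**Figure D5:**
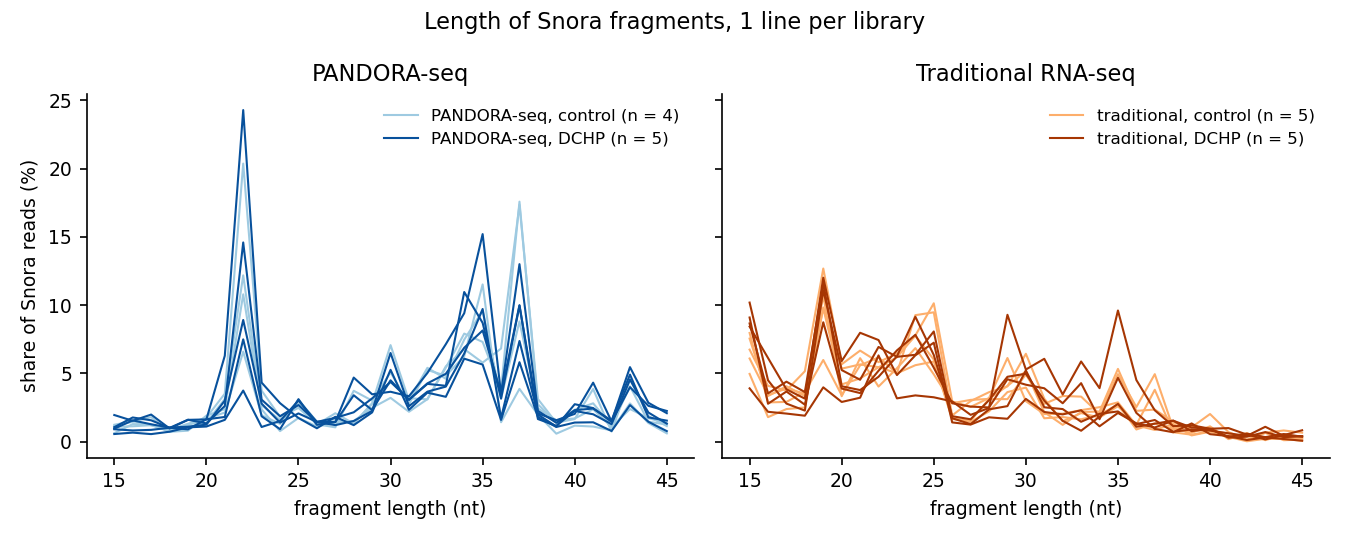
Share of Snora reads at each fragment length from 15 to 45 nt, 1 line per library, for PANDORA-seq (left) and traditional RNA-seq (right). All 9 PANDORA-seq lines have a local peak at 22 and at 37 nt. All 10 traditional lines have one at 19 nt, which is the highest point of 6 of them, while control replicate 1 and DCHP replicate 3 are highest at 15 nt, control replicate 3 at 25 nt and DCHP replicate 2 at 35 nt.

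The leading fragments, named by their exact first and last base in the gene, were compared next. Since each was chosen for its abundance in 1 method, the shares below describe it and carry no test. Among the 20 genes, the same fragment led in both methods for 5, overlapping fragments led for 11 and separate ones for 4. The leading fragment was longer in PANDORA-seq for 14, equal for 5 and longer in traditional RNA-seq for 1, with medians of 34 and 25 nt.

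In a first set of genes the start was kept and the 3′ end differed. Sequences of Snora73b, Snora47 and Snora28 are shown because the shorter read of traditional RNA-seq is contained in the longer one, and capitals mark the bases shared by both.
Snora73b PANDORA-seq: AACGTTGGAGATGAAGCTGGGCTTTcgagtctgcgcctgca
Snora73b traditional: AACGTTGGAGATGAAGCTGGGCTTT
Snora47 PANDORA-seq: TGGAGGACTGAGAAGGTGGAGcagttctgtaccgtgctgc
Snora47 traditional: TGGAGGACTGAGAAGGTGGAG
Snora28 PANDORA-seq: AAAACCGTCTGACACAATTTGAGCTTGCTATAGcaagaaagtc
Snora28 traditional: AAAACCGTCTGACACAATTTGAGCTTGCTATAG
For Snora62, whose start was also kept, the fragment of bases 2–31 took 23.8–50.6% of the gene's reads per PANDORA-seq library (median 40.6%) and 2.54–12.3% per traditional library (median 7.02%). The fragment of bases 2–26 took 7.59–22.9% and 10.7–24.8%. The ranges overlapped for the shorter fragment and not for the longer one, which was chosen for its lead in PANDORA-seq.

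In a second set the traditional fragment lies inside the PANDORA-seq fragment or shares 1 end of it. Snora44 is shown because it gave most of the traditional reads of 19 nt, Snora81, hosted by the translation factor gene Eif4a2, because its ends differ by 1 or 2 bases, and Snora70 and Snora41 because both fragments lie at the 3′ end. Capitals again mark shared bases.
Snora44 PANDORA-seq: taATGGAGAGACTTTGACAGCtcaggtcag
Snora44 traditional: ATGGAGAGACTTTGACAGC
Snora81 PANDORA-seq: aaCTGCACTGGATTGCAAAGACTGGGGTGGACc
Snora81 traditional: CTGCACTGGATTGCAAAGACTGGGGTGGAC
Snora70 PANDORA-seq: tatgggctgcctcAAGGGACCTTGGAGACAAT
Snora70 traditional: AAGGGACCTTGGAGACAAT
Snora41 PANDORA-seq: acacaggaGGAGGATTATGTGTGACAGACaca
Snora41 traditional: GGAGGATTATGTGTGACAGAC
The 19 nt fragment of Snora44, bases 64–82, took 19.7–68.4% of the gene's reads in traditional libraries, 1693 of 3252 reads in all. In PANDORA-seq it was at 0 in 5 of 9 libraries and held 11 of 423 reads. By exposure its median share was 52.7% in traditional control and 56.0% in traditional DCHP. For Snora81 the fragment of bases 97–129 took 9.52–29.0% by PANDORA-seq against 0–4.91% by traditional RNA-seq, and that of bases 99–128 took 0–2.65% and 8.77–16.7%. Neither range overlapped, although the fragments differ by only 3 nt in length, and each was chosen for its lead in 1 method. For Snora41 the fragment of bases 108–128 took 14.3–32.9% in traditional libraries and held 2 of 271 reads in PANDORA-seq. The 19 nt fragment of Snora70, bases 118–136, led in the summed traditional reads. It took 3.36–36.1% of the gene's reads in traditional control and 3.23–5.86% in traditional DCHP, and its median was 5.34% over traditional libraries against 8.13% over PANDORA-seq libraries (4.02–15.4%).

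In the last set the leading fragments of the methods came from separate places in the gene. Snora7a, hosted by the ribosomal protein gene Rpl32, gave a 5′ fragment in PANDORA-seq and a 15 nt fragment at the 3′ end in traditional RNA-seq. Snora20 did likewise, and Snora3 led with separate internal stretches. None of these pairs shares a base, so all letters are in lower case.
Snora7a PANDORA-seq: gacctcttgggatcgcgtctggagagtagc
Snora7a traditional: acactctgcaacatt
Snora20 PANDORA-seq: tttcccattaatttgctgctctagtctgt
Snora20 traditional: ctctcgtacatggtctagacatt
Snora3 PANDORA-seq: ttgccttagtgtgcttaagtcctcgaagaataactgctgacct
Snora3 traditional: tggctgtgtggacttt
The 15 nt fragment of Snora7a, bases 125–139, took 10.3–40.7% of the gene's reads in traditional libraries and held 1 of 817 reads in PANDORA-seq. The fragment of Snora20 at bases 105–127 took 4.29–52.2% in traditional libraries and held 0 of 106 reads in PANDORA-seq, which allows a share of up to 2.83%. Fragments of 15 nt can match a genome at many places, and the genome was not searched here. With reads under 18 nt left out, Snora7a was no longer called in DCHP sperm (−0.70).

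Snora57 and Snora5c, shown above and below, are the opposite case, in which the same fragment led in both methods. The leading fragment of Snora5c covers bases 98–135 up to 1 base before the annotated end.
Snora5c both methods: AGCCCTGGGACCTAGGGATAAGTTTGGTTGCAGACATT
For Snora57 the fragment of bases 51–87 took 56.4–71.4% of reads by PANDORA-seq against 2.04–33.0% by traditional RNA-seq. For Snora5c the ranges were 50.0–74.1% and 2.33–52.4% and overlapped. The 22 nt 3′ fragment of Snora24, bases 108–129, took 8.07–57.4% (median 38.6%) and 5.56–24.6% (median 18.2%). Its exposure groups overlapped within each method, with medians of 41.3% in control and 35.9% in DCHP by PANDORA-seq, and of 17.6% and 18.8% by traditional RNA-seq.

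Some members contain an annotated miRNA hairpin on their own strand, and reads there had been set aside as miRNA. Snora36b contains Mir664, Snora34 contains Mir1291, Snora81 contains Gm49346, and Snora19 overlaps mmu-mir-3084-1. For Snora36b the hairpin reads stood at 0.0252–0.185 RPM by PANDORA-seq against 1.25–3.64 RPM by traditional RNA-seq, without overlap. The remaining reads of the gene stood at 0.201–1.24 RPM and 0.0926–0.999 RPM. Without hairpin reads Snora36b was not called (0.60 ± 0.38 in control and −0.19 ± 0.50 in DCHP), and with them it was called lower in PANDORA-seq on total reads (−1.90 and −2.07). For Snora34 the hairpin reads stood at 0.0349–0.301 RPM and 0.352–2.80 RPM. Those of Snora81 overlapped between methods, at 0.139–0.792 RPM and 0.269–1.22 RPM.

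Of the 40 loci, 28 entered every fit. A total of 10 entered none because their mean was below 10 reads per library, with 9.5 to 109 reads over all libraries (Snora9, Snora33, Snora2b, Snora34, Snora43, Snora23, Snora78, Snora35, Snora15 and Snora19). Several of the genes named above divided their reads with predicted copies, with 98.1% of the reads of Snora70 shared with Gm23855, 29.5% of those of Snora81 with Gm22588 and 68.8% of those of Snora30 with Gm25133, and their levels are uncertain to that extent.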

How the data were processed

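For each of 19 libraries the authors deposited counts: every distinct sequence of 15 to 45 nt with its number of reads, not normalised. They analysed reads with SPORTS1.1, allowing 1 mismatch; the labels name mm10. Adapter and quality settings are not given in the sources used here. Reads were matched on both strands, with at most 1 mismatch, to 2198 miRNA hairpins, 356 rRNA and 32 tRNA genes, snoRNAs and other small RNAs of GENCODE M21 and to 6 mRNAs, and shared reads were divided equally. Only 10 of 408 nuclear tRNA loci and part of the nuclear rRNA sequence were used, so such reads could remain among those counted. Counts were rounded and tested with edgeR 4.0.16 in R 4.3.3 (quasi-likelihood, two-sided, all deposited reads as library size, mean of at least 10 reads). A call needed an adjusted p below 0.1 and a fold above 2. The fit was also run on simulated counts with the same dispersion for every gene and with unpaired libraries. The outcome is not given here, and that run does not cover the spread or possible pairing of these libraries. DESeq2 1.42.0 was an alternative. Fragment shares were computed in Python 3.11.15.

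Genes named are the 20 with the highest mean RPM, up to 10 called genes per test with the smallest p, and genes that overlap a miRNA hairpin; others are marked in the text. Members and lists were chosen with earlier results of these data known. Libraries with the same replicate number were checked for pairing: the correlation of their deviations from group means over genes was 0.242 to 0.437 between methods in control, where numbers were taken as paired, and −0.003 to 0.362 in DCHP. Within a method, between exposures, it was −0.317 to 0.138. The design states no pairing. No 2 libraries of a group agreed within sampling noise. PCR reads without molecular identifiers are not independent, so limits from a count of 0 (3 counts) cover counting error only. The sequence and position of 1 of the leading genes are not reported here.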

Additional observations from a re-analysis of the deposited data

Results flagged for a closer look

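Within groups, 15 values of 112 tested stood apart from the others of their group by a gap test at the 95% level, which flags about 1 in 20 groups by chance (5.6 here). Of these, 8 came from traditional DCHP replicate 2. In that library Snora24 stood at 21.1 RPM beside 2.51–6.09 RPM in the others of its group, Snora68 at 7.06 RPM beside 0.954–2.50, and Snora16a at 3.47 RPM beside 1.05–1.66. Snora17 stood at 2.32 RPM beside 1.07–1.31, Snora5c at 1.90 RPM beside 0.376–0.517, and Snora73b at 1.85 RPM beside 0.502–0.806. Its 3′ fragment share was 41.3% beside 24.4–29.3%, and its median fragment length 29 nt beside 22–24 nt.

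In traditional DCHP replicate 5, Snora47 stood at 10.2 RPM beside 0.699–1.53 RPM and Snora61 at 2.19 RPM beside 0.931–1.30. In PANDORA-seq control replicate 3, Snora41 stood at 1.75 RPM beside 0.492–0.682 and Snora16a at 1.23 RPM beside 0.718–0.796. Snora16a stood at 3.90 RPM in traditional control replicate 2 beside 0.910–1.69, and Snora44 at 2.17 RPM in PANDORA-seq DCHP replicate 5 beside 0.646–1.02. The median fragment length of PANDORA-seq DCHP replicate 3 was 27 nt beside 32–34 nt in the others.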

How the results depend on the processing

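No member was called for DCHP exposure, or for the difference between methods in its effect, under any alternative that was run. Members called between methods numbered 26 with hairpin reads and 29 with mature miRNA reads as library size in control, and 12 to 16 in control and 17 to 21 in DCHP when 1 library was left out in turn. The other alternatives stayed within 1.5 times of the 15 and 20 reported. The fits with all libraries called 71.9% of all genes in control and 75.4% in DCHP. Shares over all genes with 1 library left out, or with the replicate number as a block, are not given here. With the replicate number as a block 17 members were called in control, where numbers were taken as paired (Snora70 and Snora17 were added at 1.05 and −1.02). In DCHP 20 were called with the block, 17 of them in common with the fit without it. Whether numbers are paired in DCHP is not settled: the correlations were 0.247, 0.356, 0.281 and 0.362, but −0.003 for replicate 4. For exposure 0 members were called with the block in both methods. The fits given in the sections above treated libraries as unpaired unless the block is named. These log2 fold changes between methods turned to positive: with hairpin reads in control 0.51 for Snora62, 0.11 for Snora44, 1.67 for Snora7a, 1.86 for Snora31, 2.25 for Snora28, 2.04 for Snora68, 1.35 for Snora41, 1.59 for Snora16a, 1.04 for Snora47, 0.66 for Snora69, 1.24 for Snora20, 1.34 for Snora17 and 1.74 for Snora64, and in DCHP 0.53 for Snora62, 1.11 for Snora7a, 1.82 for Snora31, 0.90 for Snora28, 0.92 for Snora68, 0.67 for Snora41, 1.33 for Snora16a, 0.22 for Snora47, 1.02 for Snora17, 1.57 for Snora69 and 1.40 for Snora64. With mature miRNA reads they were in control 5.30 for Snora62, 4.97 for Snora44, 6.54 for Snora7a, 6.70 for Snora31, 7.16 for Snora28, 6.95 for Snora68, 6.07 for Snora41, 6.30 for Snora16a, 5.95 for Snora47, 5.56 for Snora69, 5.92 for Snora20, 6.16 for Snora17 and 6.59 for Snora64, and in DCHP 5.23 for Snora62, 3.76 for Snora44, 5.71 for Snora7a, 6.33 for Snora31, 5.54 for Snora28, 5.41 for Snora68, 5.11 for Snora41, 5.80 for Snora16a, 4.85 for Snora47, 3.91 for Snora20, 5.62 for Snora17, 4.07 for Snora65, 6.18 for Snora69 and 5.80 for Snora64. In DCHP they were with TMM factors 0.058 for Snora7a, 0.31 for Snora16a and 0.36 for Snora64, with DESeq2 size factors 0.024 for Snora28, 0.0045 for Snora68, 0.29 for Snora16a and 0.29 for Snora64, with DESeq2's Wald test 0.018 for Snora28, 0.29 for Snora16a and 0.29 for Snora64, and with reads of 18 to 45 nt 0.40 for Snora64. The cause was not tested. Per 1000000 hairpin reads the summed level was 8038 and 7358 in PANDORA-seq control and DCHP and 1171 and 1413 in traditional control and DCHP. The internal share of traditional libraries moved to 37.2% in control and 36.5% in DCHP with ends within 2 bases. In DCHP it was also 29.2% with exact matches, 29.8% with reads of 18 to 45 nt, 34.9% with hairpin reads kept and 29.8% with ends within 10 bases. The median length of traditional control rose to 25.2 nt with reads of 18 to 45 nt. Leaving out reads found in other transcripts, an alternative chosen after seeing the data, changed 1 call, that of Snora16a in control (−0.89). A search of the genome was not run. Depth limits single genes: members below 10 reads per library could not be fitted.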
